A study of Mus musculus with 8 samples.

Results

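Immediate early genes are switched on within minutes of a stimulus, without new protein synthesis, and most of the genes described here encode transcription factors of this class or their close partners. The genes are *Egr1*, *Egr2*, *Egr3*, *Fos*, *Fosb*, *Jun*, *Junb*, *Atf3*, *Ier2* and *Ier3*, found by symbol in the annotation of the array. They were chosen with earlier results of these data known, so their counts are a description of these genes and not of an unselected sample. These 10 genes stand among 21980 gene symbols, and 12 of the 22206 probe sets of the array name them. *Egr3* had 3 probe sets, and the one with the highest mean of both group averages was used.

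RNA was measured on Clariom S Mouse arrays in the gastrocnemius (GAS), a calf muscle, of male C57/Bl6j mice. One GAS received an adeno-associated virus (AAV) of serotype 1 with an sh-RNA against MYTHO, the product of *D230025D16Rik*, under the U6 promoter (MYTHO-KD), and the contralateral muscle received the same kind of virus with a scramble sh-RNA. Mice were injected at about 10 weeks of age, and muscles were taken 12 weeks later, at 22 weeks, with 4 muscles in each group. The U6 promoter is not restricted to a cell type, so the sh-RNA acts in whichever cells the virus enters.

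The early growth response (EGR) proteins are zinc finger transcription factors, and FOS and JUN proteins pair through leucine zippers to form activator protein 1 (AP-1). Serum response factor (SRF) with its ternary complex partners, and cAMP response element binding (CREB) family proteins, drive many of these genes after growth factor, calcium or stress signals through mitogen-activated protein (MAP) kinases. In skeletal muscle they are known to respond to contraction, stretch and injury, and both muscle fibres and the other cells of the tissue can express them. ATF3 also responds to the integrated stress response, in which phosphorylation of a translation initiation factor favours translation of ATF4.

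Promoter sequences are shown for *Atf3* and *Jun*, which had the lowest p-values among the 10 genes, and for *Fos*, *Fosb* and *Egr2*, whose levels were closer between groups. Each is the stretch of 250 bases before the transcription start in RefSeq (build GRCm38.p6), given 5′ to 3′ on the strand of the gene. Capitals mark the motifs that were searched for on both strands. These were the CArG box bound by SRF, the cAMP response element TGACGTCA and its first part TGACG, the AP-1 sites TGACTCA and TGAGTCA, the AP-1-like site TGACATCA, the EGR sites GCGTGGGCG and GCGGGGGCG, and the TATA box TATAAA. The first part of the cAMP response element lies within the full one, and a CArG box on one strand is always also one on the other. The *Atf3* window is chr1:191183334-191183583 (minus strand), that of *Jun* is chr4:95052223-95052472 (minus), that of *Fos* is chr12:85473640-85473889 (plus), that of *Fosb* is chr7:19310046-19310295 (minus), and that of *Egr2* is chr10:67537619-67537868 (plus).
Atf3: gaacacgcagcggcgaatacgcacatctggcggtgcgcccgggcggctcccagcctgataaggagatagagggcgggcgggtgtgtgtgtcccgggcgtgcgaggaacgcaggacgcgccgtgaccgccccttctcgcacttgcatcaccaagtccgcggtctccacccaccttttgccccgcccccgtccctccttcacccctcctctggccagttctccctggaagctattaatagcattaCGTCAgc
Jun: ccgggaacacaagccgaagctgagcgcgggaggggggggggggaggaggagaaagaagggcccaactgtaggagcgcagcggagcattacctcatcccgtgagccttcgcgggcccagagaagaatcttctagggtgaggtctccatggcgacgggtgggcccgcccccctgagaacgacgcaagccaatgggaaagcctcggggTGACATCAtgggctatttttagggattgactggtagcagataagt
Fos: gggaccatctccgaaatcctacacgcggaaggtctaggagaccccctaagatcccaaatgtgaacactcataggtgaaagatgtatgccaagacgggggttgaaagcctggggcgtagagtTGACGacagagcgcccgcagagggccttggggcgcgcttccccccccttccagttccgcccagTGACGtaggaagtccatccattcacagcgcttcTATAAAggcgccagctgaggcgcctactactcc
Fosb: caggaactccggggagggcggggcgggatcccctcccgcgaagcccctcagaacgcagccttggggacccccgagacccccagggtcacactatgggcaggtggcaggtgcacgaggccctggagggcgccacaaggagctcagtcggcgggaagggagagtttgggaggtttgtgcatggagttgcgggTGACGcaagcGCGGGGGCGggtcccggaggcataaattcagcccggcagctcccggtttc
Egr2: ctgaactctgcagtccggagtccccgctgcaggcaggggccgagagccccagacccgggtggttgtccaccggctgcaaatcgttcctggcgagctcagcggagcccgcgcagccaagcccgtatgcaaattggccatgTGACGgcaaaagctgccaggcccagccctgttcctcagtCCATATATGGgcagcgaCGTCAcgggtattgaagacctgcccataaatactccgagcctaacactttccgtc

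RefSeq windows were used for 7 of the 10 genes, 11 windows in all. Windows on chromosome 18, where *Egr1* lies, were left out, and no window is given for *Egr3* or *Ier2*. The *Atf3* window held TGACG on the reverse strand, written as CGTCA, with its first printed base 7 bases before the start. The *Jun* window held TGACATCA 45 bases before the start. The *Fos* window held TGACG at 129 and 66 bases and TATAAA at 33 bases before the start. In the *Fosb* window TGACG lay 60 bases and GCGGGGGCG lay 50 bases before the start. The printed *Egr2* window held a CArG box 72 bases before the start with a TGACG match on either side, and 4 of the 5 *Egr2* windows, which overlap in part, held a CArG box. *Junb* had TGACG 106 bases before its start, and the *Ier3* window had none of these motifs. Of 32851 windows of the same length in the RefSeq table, 17.8% held TGACG, 12.4% TATAAA, 4.46% TGACTCA or TGAGTCA, 3.06% an EGR site, 2.93% TGACATCA, 1.55% TGACGTCA and 1.47% a CArG box. These matches describe the letters of the windows and are not evidence that a protein binds there.

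The comparison asked how prolonged loss of MYTHO changed gene expression in the muscle. For each probe set the table gives the average and SD of the 4 log2 signals of a group, and values of single arrays were not used here, so it cannot be said whether single arrays of the groups overlap. A log2 difference of 1 is a 2-fold difference. Levels of different genes depend on their probes and were not set against each other. The rule for a call followed the methods of the study. It asked for a difference of at least 2-fold together with an unadjusted p below 0.05. P-values come from limma's moderated test, and the adjusted p is the Benjamini-Hochberg value across all 22206 probe sets. With 4 arrays a group precision is limited, and p-values measure the spread between these muscles. In whole muscle, a change in the number of cells of a type and a change in RNA per cell cannot be told apart. The probe set for *D230025D16Rik* (chr8:105225145-105253053, mm10) averaged 10.02 (SD 0.37) in scramble and 7.71 (SD 0.66) in MYTHO-KD muscles, a log2 difference of -2.31 (SE 0.304, adjusted p = 0.0138).

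Of the 10 genes, *Atf3* and *Egr1* rose at least 2-fold in MYTHO-KD muscles, and none was called lower. Among all probe sets 0.86% were called higher and 0.257% lower. A further gene, *Jun*, had an unadjusted p under 0.05 below the 2-fold threshold, so 3 of the 10 genes were higher by that p alone, against 6.48% of all probe sets higher and 5.52% lower. Limma's moderated test gave none of the 10 an adjusted p below 0.05, a level that 0.275% of probe sets reached. For 9 of the 10 genes the MYTHO-KD average was the higher one, *Egr3* among them although its probe sets disagree, and the median log2 difference was 0.335, while 46.9% of all probe sets were higher and their median was -0.01. All 10 were marked as expressed in both groups, and all 10 lay above the 30th percentile of mean signal (log2 5.715).

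**Figure D1:**
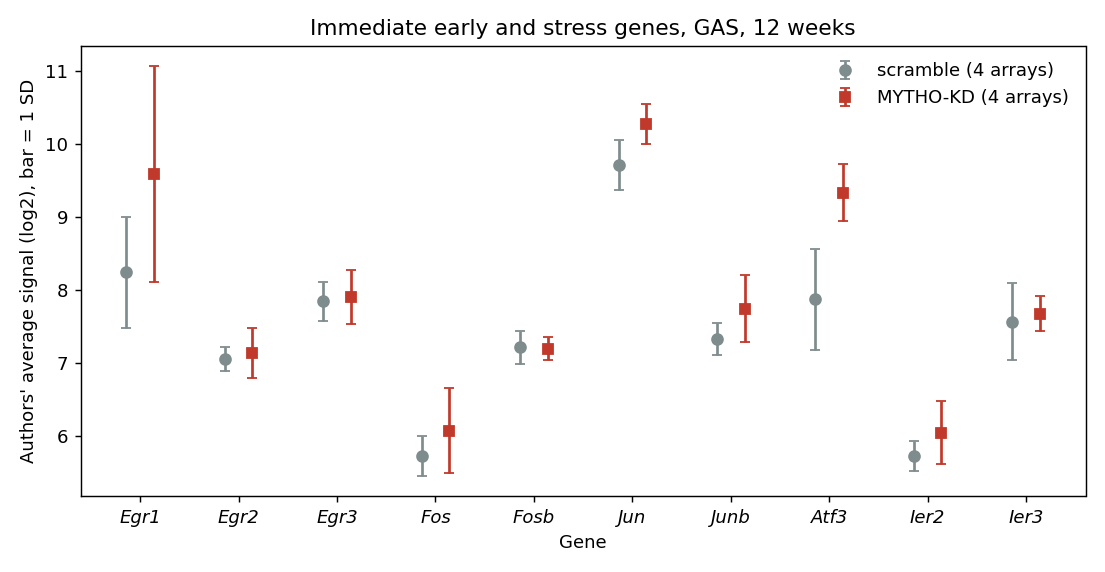
Average log2 signal of the 10 genes in scramble and MYTHO-KD muscles, with error bars of 1 SD (4 arrays a group); signals of different genes are not comparable. *Atf3* is the gene whose bars are apart (7.87 against 9.33), the bars of *Egr1* are the longest (SD 0.76 and 1.48), and those of *Fosb* lie at the same height (7.21 and 7.19).

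Of the EGR genes, *Egr1* was called and the others were not. *Egr1* (chr18:34859823-34864984, plus strand, mm10), the founding member of the family and a standard marker of MAP kinase signalling, averaged 8.24 (SD 0.76, n = 4) in scramble and 9.58 (SD 1.48, n = 4) in MYTHO-KD muscles. Average minus SD in MYTHO-KD (8.10) lay below the scramble average. The log2 difference was 1.34 (SE 0.609, 95% confidence interval 0.01 to 2.67), a fold of 2.53 whose interval ran from 1.01 to 6.35, with an unadjusted p below 0.05 and an adjusted p = 0.413 in limma's moderated test. The SD of *Egr1* in MYTHO-KD muscles was larger than that of 99.8% of probe sets, and its SD in scramble muscles larger than that of 99.1%, so it varied widely from muscle to muscle under either virus. The call depended on how the spread was estimated and on the filter of dim probe sets, since its unadjusted p stayed below 0.05 under 3 of 7 alternatives, and its adjusted p ranged from 0.359 to 0.683.

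*Egr2* (chr10:67535475-67542188, plus strand), best known for its part in Schwann cell myelination, averaged 7.05 (SD 0.16) in scramble and 7.13 (SD 0.34) in MYTHO-KD muscles. Its log2 difference of 0.08 (SE 0.194, 95% interval -0.34 to 0.50, adjusted p = 0.926 in limma's moderated test) had an interval that does not reach a 2-fold change. *Egr3*, which is needed for muscle spindles to form, averaged 7.84 (SD 0.27) in scramble and 7.90 (SD 0.37) in MYTHO-KD on the probe set used here, a log2 difference of 0.06 (SE 0.216, adjusted p = 0.955 in limma's moderated test). That probe set carries no chromosome in the table. The 3 *Egr3* probe sets disagreed. A further one without a chromosome averaged 7.64 in scramble and 7.24 in MYTHO-KD (log2 difference -0.40, adjusted p = 0.475 in limma's moderated test). The one placed on the gene (chr14:70077445-70082614, plus strand) averaged 3.56 and 3.72 and was marked as not expressed in either group. The mean difference over all 3 was -0.06, so no direction can be given for *Egr3*.

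Among the Fos proteins, which bind DNA only with a Jun partner, neither gene passed the test. *Fos* (chr12:85473890-85477273, plus strand) averaged 5.72 (SD 0.27) in scramble and 6.07 (SD 0.58) in MYTHO-KD muscles, a log2 difference of 0.35 (SE 0.268, 95% interval -0.23 to 0.93, adjusted p = 0.666 in limma's moderated test). The scramble average was close to the 30th percentile of signal. *Fosb* (chr7:19302696-19310045, minus strand) had the smallest difference of the 10 genes, with 7.21 (SD 0.23) in scramble and 7.19 (SD 0.16) in MYTHO-KD muscles. Its log2 difference was -0.02 (SE 0.173, 95% interval -0.40 to 0.36, adjusted p = 0.984 in limma's moderated test), the only one below 0.

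The Jun genes were both higher in average. *Jun* (chr4:95049034-95052222, minus strand), the main transactivating partner in AP-1 and a substrate of the JNK kinases, averaged 9.71 (SD 0.34) in scramble and 10.27 (SD 0.28) in MYTHO-KD muscles. The log2 difference was 0.56 (SE 0.211, 95% interval 0.10 to 1.02), a fold of 1.47 (1.07 to 2.03), with an unadjusted p below 0.05 and an adjusted p = 0.321 in limma's moderated test. Its unadjusted p stayed below 0.05 under all 7 alternatives, with adjusted p from 0.264 to 0.549. The whole interval lay above 0, but its upper end only just passed a 2-fold change. *Junb* (chr8:84974484-84978748, minus strand), which is known to maintain muscle fibre size, averaged 7.32 (SD 0.22) and 7.74 (SD 0.46), a log2 difference of 0.42 (SE 0.230, 95% interval -0.08 to 0.92, adjusted p = 0.506 in limma's moderated test).

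*Atf3* (chr1:191170296-191218039, minus strand), a stress-induced leucine zipper factor that pairs with Jun proteins or with itself, had the largest difference of the 10 genes. It averaged 7.87 (SD 0.69, n = 4) in scramble and 9.33 (SD 0.39, n = 4) in MYTHO-KD muscles. It was the only one of the 10 whose average minus SD in MYTHO-KD (8.94) lay above average plus SD in scramble (8.56), which was so for 4.03% of all probe sets. The log2 difference was 1.46 (SE 0.315, 95% interval 0.77 to 2.15), a fold of 2.75 (1.71 to 4.43). Limma's moderated test gave an adjusted p = 0.0888, which ranged from 0.0384 to 0.463 over 7 alternatives, while the unadjusted p stayed below 0.05 in all 7. In contrast to *Egr1*, it varied more in scramble than in MYTHO-KD muscles: its SD in scramble was larger than that of 98.2% of probe sets, and its SD in MYTHO-KD larger than that of 76.2%. The range the table gives for *Atf3* reaches further upstream than the printed window.

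The IER genes are grouped by their rapid induction and share no protein family. *Ier2* (chr8:84661331-84662852, minus strand), a nuclear regulator, lies 311632 bases from *Junb* on the same chromosome and averaged 5.72 (SD 0.20) in scramble and 6.04 (SD 0.43) in MYTHO-KD muscles. Its log2 difference was 0.32 (SE 0.220, 95% interval -0.16 to 0.80, adjusted p = 0.620 in limma's moderated test). *Ier3* (chr17:35821684-35822923, plus strand), which protects cells from apoptosis and acts on ERK signalling, averaged 7.56 (SD 0.53) and 7.67 (SD 0.24), a log2 difference of 0.11 (SE 0.251, 95% interval -0.44 to 0.66, adjusted p = 0.917 in limma's moderated test). For neither gene did the interval reach a 2-fold change, and for neither was a difference detectable.

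**Figure D2:**
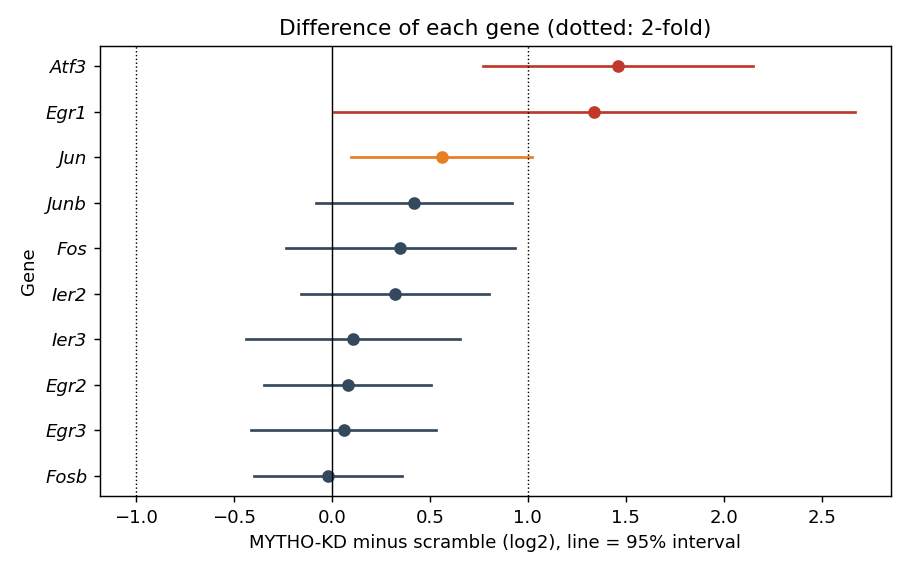
Log2 difference of each of the 10 genes (MYTHO-KD minus scramble) with its 95% confidence interval from limma's moderated test; red marks the 2-fold calls, orange an unadjusted p under 0.05 below 2-fold, and dark blue the rest. The intervals of *Atf3* (0.77 to 2.15), *Egr1* (0.01 to 2.67) and *Jun* (0.10 to 1.02) lie above 0, and the interval of *Egr1* is the widest.

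The spread within groups also differed between genes. The SD was larger in MYTHO-KD than in scramble muscles for 6 of the 10 genes, against 48.1% of all probe sets. The ratio of the SD in MYTHO-KD to that in scramble was 2.15 for *Fos*, 2.15 for *Ier2*, 2.12 for *Egr2*, 2.09 for *Junb*, 1.95 for *Egr1* and 1.37 for *Egr3*. It was 0.824 for *Jun*, 0.696 for *Fosb*, 0.565 for *Atf3* and 0.453 for *Ier3*. The SDs rest on 4 arrays each, and no test of these ratios was made. Standard errors of the log2 differences ran from 0.173 for *Fosb* to 0.609 for *Egr1*, so the differences were not measured with the same precision.

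**Figure D3:**
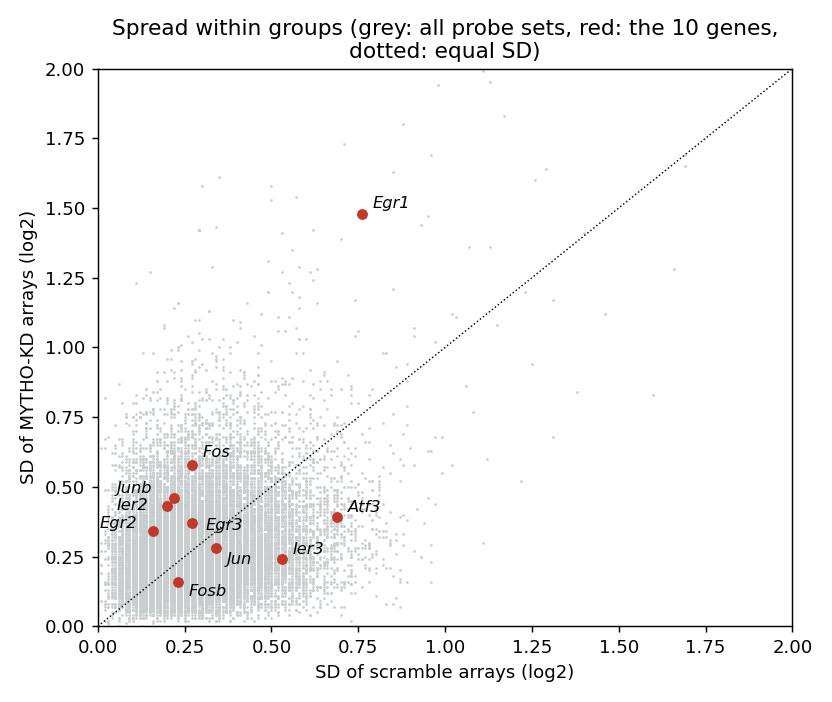
SD of the log2 signal in scramble (x axis) and MYTHO-KD muscles (y axis) for the 10 genes in red and all probe sets in grey, with equal SDs on the dotted line; 22 probe sets with an SD above 2 in either group lie outside the axes. *Egr1* stands at the edge of the cloud on both axes, *Atf3* and *Ier3* lie below the line, and *Fos*, *Junb*, *Ier2* and *Egr2* above it.

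Genes around these 10 were described in 7 lists that hold 149 genes in all. Of these, 9 were called at 2-fold, all of them higher, beside 0.86% of all probe sets called higher. They were *Map2k3* among the upstream factors, *Ccn1* (*Cyr61* in the table) and *Ccn2* (*Ctgf*) among other immediate early genes, *Timp1* among AP-1 and EGR1 targets, and *Mt1*, *Mt2*, *Hspb1*, *Srxn1* and *Bag3* among heat shock and oxidative stress genes. By an unadjusted p under 0.05 alone, 6.48% of all probe sets were higher and 5.52% lower.

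Relatives of the 10 genes (other Fos, Jun, ATF, EGR, BATF and small MAF genes) were near 0. Of 18, 9 were higher in average, the median log2 difference was -0.005 and none was called. An unadjusted p under 0.05 was found for 1 (5.56%), close to the 6.48% of all probe sets that were higher by that p. That gene was *Jund*, the Jun protein present in resting cells, with 7.84 (SD 0.14) in scramble and 8.31 (SD 0.42) in MYTHO-KD muscles (log2 difference 0.47, adjusted p = 0.408 in limma's moderated test). The next by size were *Atf5* (0.33, adjusted p = 0.476 in limma's moderated test) and *Atf7* (-0.30, adjusted p = 0.518), whose probe set also names *Npff*. Within the Jun family the averages of *Jun*, *Junb* and *Jund* were therefore all higher, by 0.42 to 0.56 on the log2 scale.

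Upstream factors lay on both sides of 0. Of 25 genes for SRF, its partners, CREB proteins and MAP kinases, 12 were higher in average and the median was -0.02. An unadjusted p under 0.05 was found for 3 that were higher and 4 that were lower. *Map2k3*, a kinase that activates p38, averaged 10.85 (SD 0.48) in scramble and 11.93 (SD 0.24) in MYTHO-KD muscles and was called (log2 difference 1.08, SE 0.237, adjusted p = 0.0920 in limma's moderated test). *Elk3*, a ternary complex factor, was higher by 0.75 (adjusted p = 0.356 in limma's moderated test) without reaching 2-fold, and *Map2k2*, which encodes the ERK activator MEK2, by 0.51 (adjusted p = 0.325). The 4 lower genes were *Rps6ka3* (-0.60), *Mrtfb* (-0.56, *Mkl2* in the table), *Crebbp* (-0.47) and *Mapk14* (-0.47), with adjusted p from 0.199 to 0.389 in limma's moderated test. *Mapk14* encodes the main p38 kinase, the substrate of *Map2k3*. *Mapk3*, which encodes ERK1, differed by 0.60 (adjusted p = 0.418 in limma's moderated test), and *Srf* itself averaged 10.99 (SD 0.25) in scramble and 11.10 (SD 0.43) in MYTHO-KD. *Map2k2*, the 4 lower genes and *Srf* were picked after their values were seen.

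Feedback inhibitors of these pathways (MAP kinase phosphatases, Sprouty and Spred proteins, NAB corepressors and ZFP36 proteins) gave no call. Of 21 genes, 15 were higher in average, against 46.9% of all probe sets, with a median of 0.17. *Dusp6*, an ERK phosphatase, averaged 8.47 (SD 0.26) and 9.10 (SD 0.55), a log2 difference of 0.63 (adjusted p = 0.358 in limma's moderated test). *Dusp10*, picked after its value was seen, was the gene with an unadjusted p under 0.05 that was lower (-0.42, adjusted p = 0.366). *Zfp36*, which promotes decay of immediate early and cytokine mRNAs, averaged 8.24 (SD 0.69) and 9.20 (SD 0.95), a log2 difference of 0.96 (SE 0.441, adjusted p = 0.419 in limma's moderated test), and *Zfp36l1* differed by 0.54 (adjusted p = 0.518). The spread of *Zfp36* was wide in both groups.

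Other immediate early genes were higher more often than lower. Of 38 genes, 29 were higher and 8 lower in average, against 46.9% of all probe sets higher, and the median was 0.28. An unadjusted p under 0.05 was found for 11 higher and 2 lower genes, against 6.48% and 5.52% of all probe sets. *Ccn1*, a matricellular protein and an SRF and YAP target, averaged 10.90 (SD 0.56) in scramble and 12.12 (SD 0.61) in MYTHO-KD muscles and was called (log2 difference 1.22, SE 0.327, adjusted p = 0.154 in limma's moderated test). *Ccn2*, its relative and a growth factor of connective tissue, averaged 7.86 (SD 0.47) and 9.15 (SD 1.12) and was called (1.29, SE 0.455, adjusted p = 0.283), a call that ended with no moderation and with unequal variances. *Klf4*, a zinc finger factor, averaged 6.59 (SD 0.08) and 7.49 (SD 0.73), a log2 difference of 0.90 (adjusted p = 0.248 in limma's moderated test). The SD was larger in MYTHO-KD for 27 of the 38 genes (71.1%), against 48.1% of all probe sets, with no test of the difference. The 2 lower genes, named after their values were seen, were *Homer1* (-0.44) and *Tiparp* (-0.63), and *Nr4a1*, a classical activity-induced gene picked in the same way, averaged 12.69 (SD 0.51) and 12.67 (SD 0.54).

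Genes known as AP-1 or EGR1 targets gave 1 call among 20. Of these, 16 were higher in average, against 46.9% of all probe sets, with a median of 0.145. An unadjusted p under 0.05 was found for 4 higher and 1 lower, against 6.48% and 5.52% of all probe sets. The called gene was *Timp1*, an inhibitor of metalloproteinases, with 4.46 (SD 0.24) in scramble, where it was marked as not expressed, and 5.50 (SD 0.86) in MYTHO-KD muscles (log2 difference 1.04, SE 0.348, adjusted p = 0.256 in limma's moderated test). That call ended with no moderation and with unequal variances, and the filters on dim or not expressed probe sets leave *Timp1* out. *Pdgfb*, a growth factor for vascular mural cells, averaged 8.42 (SD 0.40) and 9.25 (SD 0.40), a log2 difference of 0.83 (adjusted p = 0.199 in limma's moderated test). *Thbs1* differed by 0.87 with wide spread (adjusted p = 0.652 in limma's moderated test). The lower gene was *Il6*, named after its value was seen, with 5.91 (SD 0.41) and 5.18 (SD 0.39) and a log2 difference of -0.73 (adjusted p = 0.260 in limma's moderated test).

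Genes of the integrated stress response lay on both sides of 0. Of 12, 7 were higher in average with a median of 0.03, none was called, and 1 had an unadjusted p under 0.05. That was *Mthfd2*, an enzyme of mitochondrial one-carbon metabolism, with a log2 difference of 0.40 (adjusted p = 0.385 in limma's moderated test). *Chac1*, which degrades glutathione, differed by 0.50 (adjusted p = 0.742), and *Ddit3*, which encodes CHOP, by 0.25 (adjusted p = 0.737). *Atf4* averaged 13.71 (SD 0.24) in scramble and 13.47 (SD 0.25) in MYTHO-KD muscles, and was picked after its value was seen. The part of this response in the values of *Atf3* was not tested.

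Heat shock and oxidative stress genes had the most calls of these lists. Of 15, 14 were higher in average, against 46.9% of all probe sets, with a median of 0.47. An unadjusted p under 0.05 was found for 8 and 5 were called, all higher, against 6.48% and 0.86% of all probe sets. *Srxn1*, which repairs oxidised peroxiredoxins, averaged 6.86 (SD 0.21) and 7.96 (SD 0.23), and its log2 difference of 1.10 had an adjusted p of 0.0345 in limma's moderated test. The small heat shock protein gene *Hspb1* averaged 11.52 (SD 0.19) and 12.76 (SD 0.57), a difference of 1.24 (adjusted p = 0.0757), and the chaperone partner *Bag3* averaged 11.89 (SD 0.92) and 12.92 (SD 0.42), a difference of 1.03 (adjusted p = 0.320). The call of *Bag3* ended with no moderation and with unequal variances. The metallothioneins *Mt1* and *Mt2*, which bind zinc, differed by 2.28 and 3.69 on the log2 scale (adjusted p = 0.0742 and 0.0670 in limma's moderated test), with an SD of 1.80 for *Mt2* in MYTHO-KD muscles. *Hspa1a* and *Hspa1b* have near-identical sequences and share the same probe set, so they were not told apart. That single measurement is counted for both genes in the counts and median of the list.

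**Figure D4:**
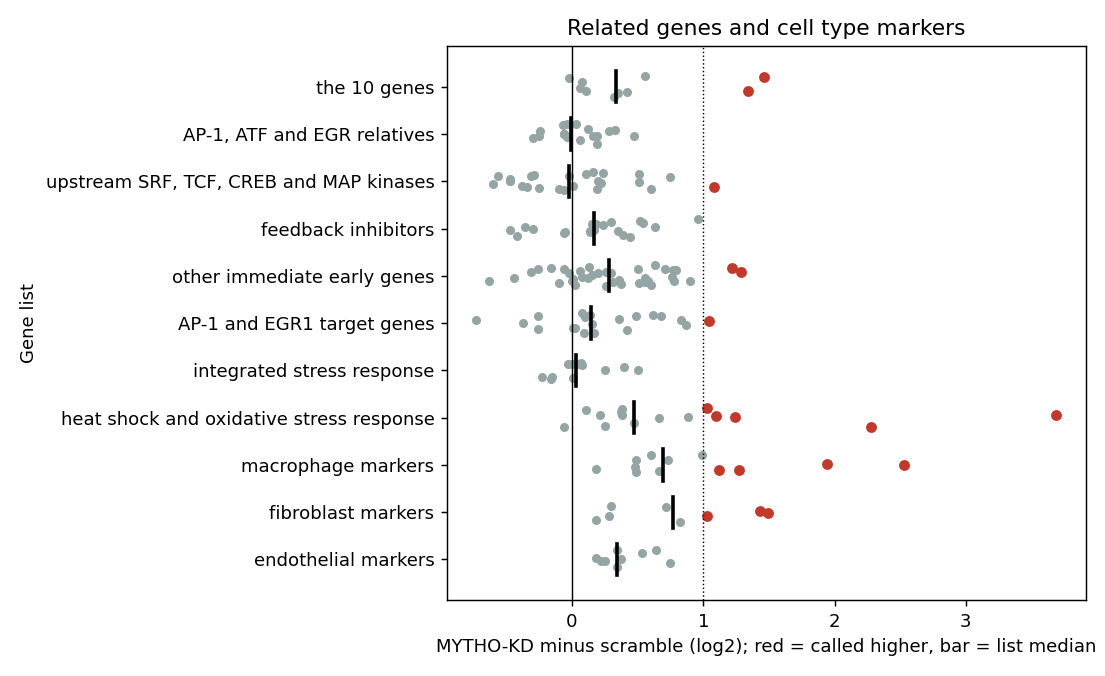
Log2 difference (MYTHO-KD minus scramble) of every gene of the 10-gene group, the 7 lists around it and 3 lists of cell type markers. Red marks 2-fold calls, a bar the median of each list and a dotted line 2-fold. The 3 marker lists are those in which every marker was higher in average, and the other marker lists are not shown. The 10 genes have a median of 0.335, the relatives one of -0.005, the integrated stress response one of 0.03 and the heat shock and oxidative stress genes one of 0.47.

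Markers of some other cells of the muscle were higher too. All 12 macrophage markers were higher in average, against 46.9% of all probe sets. Of the 12, 8 had an unadjusted p under 0.05 and 4 were called, against 6.48% and 0.86% of all probe sets in that direction. The summed signal of the 12 went from 10.58 to 12.06 on the log2 scale. None was marked as not expressed in either group. *Cd68*, the largest, averaged 6.90 (SD 0.20) in scramble and 9.43 (SD 0.88) in MYTHO-KD muscles, a log2 difference of 2.53 (adjusted p = 0.0182 in limma's moderated test). In the same test *Lyz2* differed by 1.94 (adjusted p = 0.0277), *C1qb* by 1.27 (adjusted p = 0.0754) and *Mpeg1* by 1.12 (adjusted p = 0.207). The SD was larger in MYTHO-KD for 11 of the 12 markers, against 48.1% of all probe sets, with no test of the difference. The SDs of *Egr1* (larger in MYTHO-KD), *Atf3* and *Jun* (smaller) rest on 4 arrays each and were not compared with those of the markers. The call of *Mpeg1* ended with unequal variances, and the filter on dim probe sets leaves *Mpeg1* out. All 8 fibroblast markers were higher in average and 3 were called, and their summed signal went from 16.69 to 17.02. The called log2 differences were 1.49 for *Lum* (adjusted p = 0.0443 in limma's moderated test), 1.43 for *Col3a1* (adjusted p = 0.102) and 1.03 for *Fbn1* (adjusted p = 0.246). The call of *Fbn1* ended with no moderation and with unequal variances. All 9 endothelial markers were higher in average with no call, and their summed signal went from 14.04 to 14.52. The largest were *Kdr* (0.75, adjusted p = 0.190 in limma's moderated test), *Eng* (0.64, adjusted p = 0.364) and *Tek* (0.53, adjusted p = 0.432). The summed signals add levels of different genes and are weighted towards the brightest probe sets. In MYTHO-KD the brightest were *Lyz2* (11.11) among macrophage, *Dcn* (16.86) among fibroblast and *Cdh5* (13.22) among endothelial markers. The part of these cells in the values of *Atf3*, *Egr1* and *Jun* was not tested.

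Other cell types gave no call. None of 8 neutrophil markers (median 0.02), 8 lymphocyte markers (median -0.17), 7 satellite cell markers (median 0.03) and 9 muscle spindle genes (median 0.08) had an unadjusted p under 0.05. Some of these markers lay under the 30th percentile of mean signal (log2 5.715). Examples are *Camp* (4.58 in scramble, 4.59 in MYTHO-KD), *Cd3g* (4.02, 3.89) and *Pax7* (4.79, 4.97), while *Cd4* (7.82, 7.65) and others were brighter. *S100a8* and *Cd3g* were marked as not expressed in MYTHO-KD muscles. Differences tend to be understated in this dim range, so the lack of a call does not show these cells to be unchanged. The largest differences among neutrophil markers were -0.33 for *Mpo*, 0.29 for *Elane* and -0.27 for *S100a9*. Of the lymphocyte markers, *Ms4a1* differed by -0.31 and *Cd3e* by -0.23. The largest differences were 0.19 for *Chodl*, 0.18 for *Pax7* and 0.07 for *Cdh15* among satellite cell markers, and -0.42 for *Ntrk3*, 0.33 for *Ntf3* and 0.31 for *Etv5* among spindle genes. Of 10 Schwann cell markers (median -0.155), *Mag* had an unadjusted p under 0.05 (-0.35, adjusted p = 0.390 in limma's moderated test), and *Mbp* and *Prx* differed by -0.42 and -0.32. Muscle fibre markers defined the tissue: *Acta1* and *Myh4* stood at 19.93, the top of the scale, with an SD of 0 in both groups, so no change could be seen in them. *Tnnt3*, *Tnni2*, *Pvalb* and *Actn3* averaged from 19.11 to 19.73, close to that top, which leaves little room for a rise. Of the 8 fibre markers none was called, and the largest differences were 0.59 for *Myh1* (adjusted p = 0.230 in limma's moderated test), -0.23 for *Actn3* and -0.15 for *Pvalb*. *Myh1* had an unadjusted p under 0.05, also under all 7 alternatives.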

How the data were processed

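RNA of 8 GAS muscles, 4 per group, was hybridised to 1 Clariom S Mouse array each. Per the paper's methods, signals were processed by the authors in Transcriptome Analysis Console and carry SST-RMA normalization, while the submitters' processing notes name Affymetrix Expression Console and RMA with build mm10. Such normalization makes arrays alike in distribution, so a shift shared by most genes would not be seen. The authors deposited log2 averages and SDs of each group, the other values used here being annotation and expression flags. The table has 28 columns, uses a decimal comma and gives 0 columns of single arrays, and the kind of average is not stated. Its fold change, p-value and false discovery rate columns, which hold the authors' own comparison, were not used.

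Groups came from the sample labels. The difference of the log2 averages (MYTHO-KD minus scramble) was tested with limma 3.58.1 in R 4.3.3. For each probe set the variances of both groups were pooled (6 residual degrees of freedom) and then shrunk with squeezeVar, which estimated a prior SD of 0.284 and 5.85 prior degrees of freedom. P-values are two-sided. If the averages are not plain means, the p-values may be too low. The procedure was tested on simulated data. Muscles of a mouse could not be paired, so the p-values and intervals treat the muscles of the groups as independent. Differences between mice therefore stay in the spread. Where a gene had more than 1 probe set, the brightest by the mean of both averages stood for it. Named genes were the 10 members, *D230025D16Rik* and, in each list, all called genes and the 3 with the largest absolute difference, unless stated otherwise; 1 lymphocyte marker named by this rule is not reported here. Lists were described by counts and medians, without a test of the list. The lists, like the 10 genes, were chosen with earlier results of these data known. Alternatives were the variance model (none, trend and robust, unequal variances), filters on dim probe sets, 1 probe set per symbol, the mean over probe sets, centring, a 1.5-fold threshold and an adjusted p under 0.1.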

Additional observations from a re-analysis of the deposited data

How the results depend on the processing

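The 2 calls among the 10 genes (*Atf3* and *Egr1*) became 1 with no moderation, with trend and robust fitting, with unequal variances and without probe sets under the 30th percentile of mean signal, where the unadjusted p of *Egr1* passed 0.05. At an adjusted p under 0.05, 0 of the 10 genes passed, while 1 (*Atf3*) passed with trend and robust fitting (adjusted p = 0.0384) and 1 at an adjusted p under 0.1 (*Atf3*, 0.0888). In the 7 lists 9 genes were called at 2-fold, 25 at 1.5-fold, and from 6 to 9 under the other alternatives. The log2 difference of *Egr3*, 0.06, became -0.06 as the mean over its probe sets. The adjusted p was below 0.05 for 61 probe sets of the whole array, against 189 with trend and robust fitting, 2 with no moderation and 2 with unequal variances. Of the values of 61 named genes under alternatives, 390 kept their direction and side of the threshold, 24 (13 genes) lost an unadjusted p under 0.05, 5 (3 genes) gained one and 1 reversed.

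No paired analysis was possible because the table gives group averages without replicate numbers, and for the same reason leaving out each replicate in turn was not run. Genes near the 30th percentile, such as *Fos* and *Ier2* in scramble muscles, lie in the dim range of the array, where differences tend to be understated. Whether 1 muscle set the spread of *Egr1* was not tested.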
